A study of Mus musculus with 12 samples.

Results

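The mitochondrial ribosomal protein genes were followed in mouse distal colon. They were taken as every gene whose current symbol starts with Mrpl or Mrps followed by a number and that has a non-control probe, which gave 78 of the 18539 genes with a symbol on the array: 49 of the large subunit (Mrpl) and 29 of the small subunit (Mrps). All 78 passed the filter on dim probes, and each was well above background on all 12 arrays. The arrays were one-colour oligonucleotide arrays hybridised with total RNA of the distal colon and rectum, 3 for each of 4 groups. The animals were BALB/c females, 5 to 7 weeks old at the start, and their tissue was taken on day 100. Animals of the AOM/DSS group received the colon carcinogen azoxymethane (AOM) at 12.5 mg/kg on day 1, followed by 3 cycles of the colitis-inducing polymer dextran sulfate sodium (DSS), in the drinking water for 5 days of each 21-day cycle, and their neoplasms were clipped out into RNA storage solution. The AOM group received 10 mg/kg once a week, 6 times, the DSS group the same 3 DSS cycles without AOM, and the control group neither. In these other groups epithelium was scraped off into Trizol. Collection, storage and AOM dose therefore differ with the AOM/DSS group and cannot be told apart from it. In bulk tissue, fewer cells of a type and less RNA per cell cannot be told apart either. The labels do not say whether the 3 arrays of a group came from separate mice, so the p-values cover the spread among arrays, some or all of which may be technical.

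Mitochondrial ribosomes translate the few proteins encoded by mitochondrial DNA, all of them core subunits of the respiratory chain and ATP synthase. Their ribosomal RNA is made in the mitochondrion, but every protein of both subunits is encoded in the nucleus, translated in the cytosol and imported. The small subunit binds and decodes the messenger RNA, and the large subunit holds the peptidyl transferase centre, the exit tunnel and the stalk that recruits translation factors. Some members descend from bacterial ribosomal proteins and others were added in the mitochondrial lineage. Nuclear genes for mitochondrial proteins are commonly described as carrying promoter sites for NRF1, for ETS family factors such as GABP, and for YY1.

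Promoter sequence is shown for the 4 members that fell in AOM/DSS neoplasms against each of the other groups (Mrpl14, Mrps12, Mrps24 and Mrps6) and for the largest rises of AOM/DSS over control (Mrpl22 and Mrps18b). Each line gives the 250 bases before the annotated start from RefSeq (GRCm38.p6), 5′ to 3′ on the gene's strand. Capitals mark a match to a searched motif.
Mrpl14 (chr17:45686099-45686348, plus strand): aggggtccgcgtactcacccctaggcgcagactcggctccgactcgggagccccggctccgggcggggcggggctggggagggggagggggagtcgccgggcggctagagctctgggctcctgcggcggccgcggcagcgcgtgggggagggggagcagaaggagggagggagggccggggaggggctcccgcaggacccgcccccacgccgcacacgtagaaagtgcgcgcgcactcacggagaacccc
Mrps12 (chr7:28741822-28742071, minus strand): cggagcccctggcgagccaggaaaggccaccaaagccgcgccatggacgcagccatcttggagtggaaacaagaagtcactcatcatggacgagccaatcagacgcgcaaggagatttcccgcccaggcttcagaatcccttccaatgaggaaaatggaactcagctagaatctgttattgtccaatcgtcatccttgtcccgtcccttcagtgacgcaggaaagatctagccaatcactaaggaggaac
Mrps24 (chr11:5707702-5707951, minus strand): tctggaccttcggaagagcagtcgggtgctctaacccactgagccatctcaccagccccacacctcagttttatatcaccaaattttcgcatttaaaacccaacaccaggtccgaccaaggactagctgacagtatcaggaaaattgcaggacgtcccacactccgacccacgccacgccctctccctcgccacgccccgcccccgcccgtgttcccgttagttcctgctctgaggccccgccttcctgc
Mrps6 (chr16:92058086-92058335, plus strand): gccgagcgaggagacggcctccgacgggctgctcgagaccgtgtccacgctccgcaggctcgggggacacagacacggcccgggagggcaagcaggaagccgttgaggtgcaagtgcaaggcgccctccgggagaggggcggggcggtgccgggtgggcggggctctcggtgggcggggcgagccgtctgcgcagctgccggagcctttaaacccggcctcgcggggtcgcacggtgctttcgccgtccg
Mrpl22 (chr11:58171414-58171663, plus strand): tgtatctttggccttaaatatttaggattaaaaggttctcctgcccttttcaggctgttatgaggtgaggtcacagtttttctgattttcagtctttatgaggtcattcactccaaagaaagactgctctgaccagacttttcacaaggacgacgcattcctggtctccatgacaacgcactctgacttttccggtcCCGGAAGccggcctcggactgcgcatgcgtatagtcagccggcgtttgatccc
Mrps18b (chr17:35916441-35916690, minus strand): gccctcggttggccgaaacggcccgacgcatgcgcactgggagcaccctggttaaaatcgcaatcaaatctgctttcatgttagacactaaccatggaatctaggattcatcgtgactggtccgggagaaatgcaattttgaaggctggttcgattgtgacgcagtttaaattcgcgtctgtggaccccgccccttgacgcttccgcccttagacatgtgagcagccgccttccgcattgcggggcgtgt
The motifs searched on both strands were, for NRF1, GCGCA and GCGC with any base between them, CCGGAAG for ETS factors and AANATGGCG for YY1, in windows of 300 bases that run from 250 bases before to 50 bases after the start. In the printed stretches the only match was the ETS motif of Mrpl22, whose first base lies 53 bases before the start. The windows of Mrpl14 (NRF1, from base 5 after the start), Mrps12 (ETS, from base 2), Mrps24 (YY1, from base 37) and Mrps18b (ETS, from base 44) each held a match after the start, and that of Mrps6 held none. Windows were found for 69 of the 78 members, 75 windows in all. The ETS motif was in 34.7% of them, against 15.8% of the 13704 windows of tested genes and 8.86% of all 32851 windows. The NRF1 motif was in 17.3% of member windows, against 8.85% and 4.60%, and the YY1 motif in 14.7%, against 4.40% and 2.38%. Any of the motifs was in 56.0% of member windows, against 25.6% of tested and 14.2% of all windows. A match is a stretch of letters, not a measured site.

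Array brightness differed between groups. The 75th percentile of intensity, to which each array was scaled, was 1115 to 1185 in the AOM/DSS group and 393 to 694 elsewhere, and 62.6% to 66.2% of probes were well above background on AOM/DSS arrays, against 52.0% to 59.3%. The arrays lay on 3 slides, the first with replicates 1 and 2 of both AOM/DSS and AOM, the next with AOM replicate 3 and all DSS arrays, the last with AOM/DSS replicate 3 and all control arrays. Markers of exocrine pancreas, of which 8 of 9 could be tested and 2 were well above background on all 12 arrays, stood apart on some of them. Their mean log2 level reached 3.61 in DSS replicate 1, 6.28 in control replicate 3 and 1.79 in control replicate 1. It ran between -4.93 and -0.99 everywhere else. The labelled epithelium carried its markers: all 6 pan-epithelial markers were well above background on all 12 arrays, at a mean log2 level of 6.12 to 6.37 in AOM/DSS, 7.02 to 7.15 in AOM, 6.91 to 7.69 in DSS and 6.77 to 7.58 in control.

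Levels are given below as log2 of the background-corrected signal minus the array's 75th percentile, and differences as the log2 level of the group named first minus that of the other. The members moved over a modest range: the highest and the lowest of the 12 arrays were 0.43 (Mrpl21) to 1.87 (Mrps11) apart on the log2 scale, with a median of 1.12. AOM arrays held the highest group mean for 55 of the 78 members. AOM/DSS arrays held the lowest for 34 and control arrays for 31. The median deviation of the members from their own mean was -0.22, -0.13 and 0.09 on the AOM/DSS arrays, 0.28, 0.29 and 0.32 on the AOM arrays, -0.33, 0.24 and 0.11 on the DSS arrays, and -0.16, 0.05 and -0.19 on the control arrays. AOM was thus the group whose arrays stood closest together and highest. The DSS arrays were the most scattered, with a median SD of 0.35 per member, against 0.19 in AOM/DSS, 0.17 in AOM and 0.20 in control. DSS replicate 1 was the lowest of all 12 arrays for 21 members, and only control replicate 1 was lowest for more, with 22. DSS replicate 1 is also an array with high pancreatic markers, and their part in its low values was not tested. In limma's moderated F test over the 4 groups, with Benjamini-Hochberg adjustment over 18953 genes and a threshold of 0.05 as for every call below, 27 members (34.6%) differed between groups, against 52.6% of all genes tested.

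**Figure D1:**
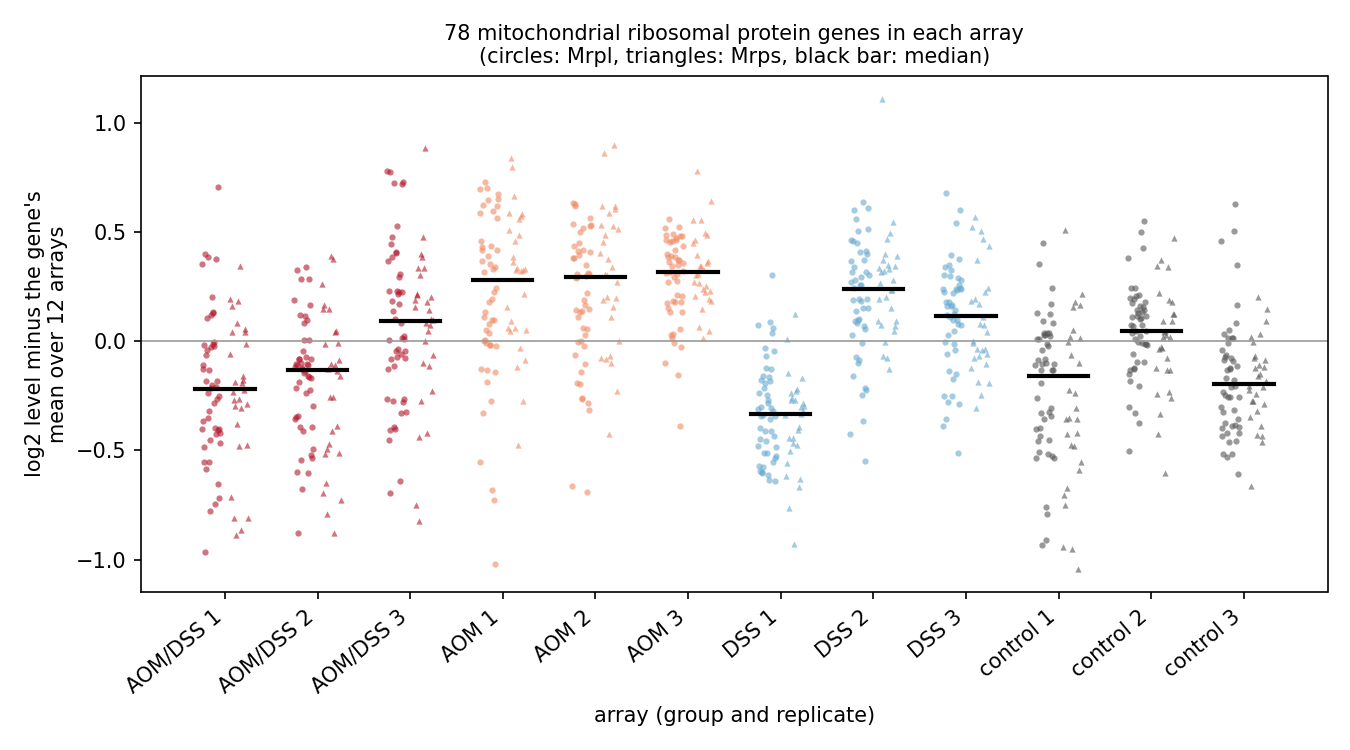
Each point is a mitochondrial ribosomal protein gene on an array, plotted as its log2 level minus its own mean over the 12 arrays, with black bars for the median of the 78 genes. The 3 AOM medians lie at 0.28 to 0.32, whereas the DSS medians run from -0.33 to 0.24.

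In AOM/DSS neoplasms against control epithelium, some members rose, some fell and most did not pass the test. Of 78 members 4 rose and 6 fell (12.8%), against 34.7% of all genes tested (17.2% higher, 17.5% lower). Mrpl22, Mrps18b, Mrps7 and Mrps22 rose, and Mrpl14, Mrps12, Mrps24, Mrps6, Mrps36 and Mrpl51 fell. The members' median difference was 0.0021, against 0.03 over all genes; its sign depends on the processing, with -0.15 under median scaling, 0.22 under quantile normalization and 0.42 with normexp. The 3 AOM/DSS arrays lay entirely above the 3 control arrays for 16 members (26.3% of all genes did) and entirely below for 15 (26.2% of all genes).

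The lower side was led by Mrpl14, Mrps12, Mrps24 and Mrps6. Mrpl14, a conserved protein at the subunit interface of the large subunit, read 4.47, 4.56 and 4.75 on the AOM/DSS arrays, 6.06, 5.73 and 5.71 on AOM, 5.14, 6.04 and 6.12 on DSS, and 5.80, 5.55 and 5.36 on control arrays. Mrps12, the counterpart of the bacterial protein S12 that shapes decoding accuracy, read 3.03, 3.05 and 3.02 on AOM/DSS, 4.64, 4.33 and 4.62 on AOM, 3.34, 3.78 and 4.41 on DSS, and 3.84, 4.22 and 3.84 on control arrays. For both genes the AOM/DSS arrays were the lowest of all and overlapped no other group. Mrps6, the counterpart of bacterial S6, read 3.85, 3.87 and 3.82 on AOM/DSS, 5.15, 4.49 and 4.83 on AOM, 4.57, 4.90 and 5.09 on DSS, and 5.07, 4.91 and 4.22 on control arrays. Mrps24, the counterpart of bacterial S3, read 2.59, 2.57 and 3.03 on AOM/DSS, 4.01, 3.79 and 3.68 on AOM, 2.97, 3.95 and 3.92 on DSS, and 3.63, 3.79 and 3.49 on control arrays. Mrps6 did not overlap any other group, and for Mrps24 only DSS replicate 1 fell within the AOM/DSS range. Against control, Mrpl14 fell by 0.97 (SE 0.27, limma adjusted p = 0.0182), Mrps12 by 0.93 (SE 0.26, adjusted p = 0.0192), Mrps24 by 0.91 (SE 0.28, adjusted p = 0.0268) and Mrps6 by 0.89 (SE 0.27, adjusted p = 0.0253). These 4 were the only members called lower in AOM/DSS against each of the other groups, and none was called higher against each. The comparisons share the AOM/DSS arrays. The sizes depend on the processing. With normexp none of the 4 was called in any of the 3 comparisons, and against control Mrpl14 stood at -0.35, Mrps12 at -0.27, Mrps24 at -0.36 and Mrps6 at -0.27 (limma adjusted p = 0.470, 0.663, 0.482 and 0.589). With quantile normalization they stood at -0.48, -0.62, -0.63 and -0.49 against control, where Mrps6 was no longer called (adjusted p = 0.0701), and Mrps12 and Mrps24 were no longer called against DSS (adjusted p = 0.122 and 0.0553).

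The remaining falls were Mrps36 and Mrpl51. Mrps36, which is known as a component of the 2-oxoglutarate dehydrogenase complex despite its symbol, averaged 1.67 ± 0.41 in AOM/DSS and 2.48 ± 0.17 in control (SD, n = 3 each), a difference of -0.81 (SE 0.26, limma adjusted p = 0.0355). Mrpl51, a large-subunit protein without a bacterial counterpart, averaged 4.84 in AOM/DSS and 5.65 in control and fell by 0.80 (SE 0.22, adjusted p = 0.0154). For both, the AOM/DSS and control arrays did not overlap. Mrps36 stood at -0.33 with normexp and at -0.34 with slide as a block, and was called in neither (limma adjusted p = 0.519 and 0.556).

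On the higher side, Mrpl22 lines the exit tunnel, as its bacterial counterpart does. It read 1.48, 1.38 and 1.82 on AOM/DSS, 1.08, 1.49 and 1.55 on AOM, 0.58, 1.18 and 0.96 on DSS, and 0.16, 0.76 and 0.67 on control arrays, and was 1.03 higher in AOM/DSS than in control (SE 0.25, limma adjusted p = 0.0096). Mrps18b, 1 of 3 mitochondrial paralogs of bacterial S18, read -0.03, 0.17 and 0.26 on AOM/DSS, 0.11, 0.37 and 0.34 on AOM, -1.15, 0.25 and -0.28 on DSS, and -1.17, -0.82 and -0.65 on control arrays. Its difference was 1.01 (SE 0.31, adjusted p = 0.0300). For both genes AOM/DSS and AOM arrays overlapped each other and lay above all control arrays. Mrps7, the counterpart of bacterial S7, which binds the 3′ part of the small ribosomal RNA, was 0.79 higher (SE 0.22, adjusted p = 0.0184). Mrps22, a small-subunit protein without a bacterial counterpart whose mutation causes a human mitochondrial disease, was 0.76 higher (SE 0.24, adjusted p = 0.0306). With normexp Mrpl22 stood at 1.08 and Mrps7 at 1.06, and both were called (limma adjusted p = 0.0201 and 0.0229). Mrps18b at 0.52 and Mrps22 at 0.86 were not called there (limma adjusted p = 0.225 and 0.0542).

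**Figure D2:**
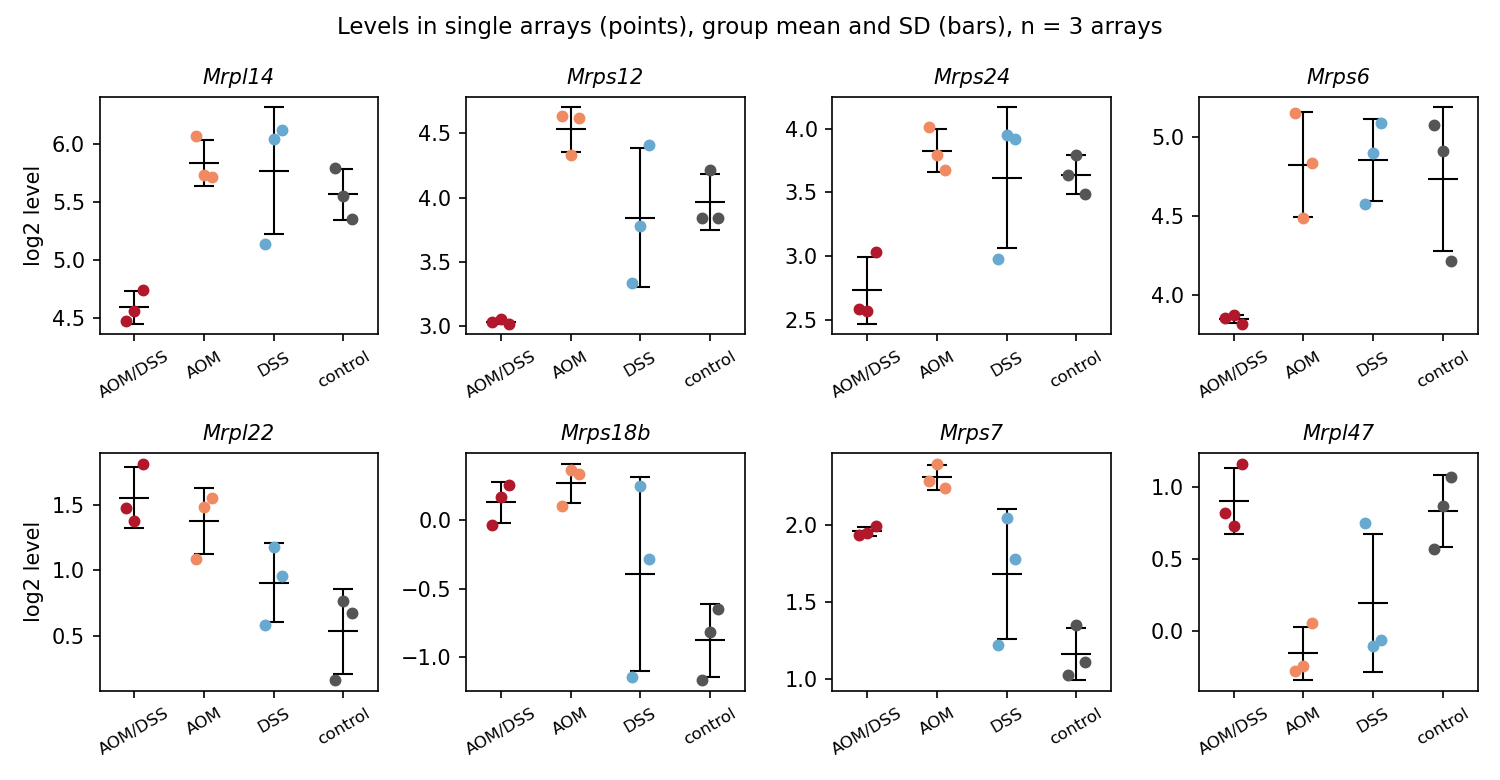
Log2 level relative to the array's 75th percentile on each array (points) for 8 members in the 4 groups, with the group mean and SD as bars (n = 3 arrays each). In the top panels the AOM/DSS means are lowest, with DSS replicate 1 inside the AOM/DSS range for Mrps24 and Mrpl14 at 4.47 to 4.75 against 5.36 to 5.80 in control; in the bottom panels Mrpl22, Mrps18b and Mrps7 sit above control in AOM/DSS and AOM, and Mrpl47 is lowest in AOM.

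The AOM/DSS against control calls depended on single arrays and on the processing, and the share of all genes called moved as well. Under quantile normalization 16 members were higher and 4 lower, with 36.9% of all genes called. Under median scaling 0 were higher and 5 lower (30.6% of all genes), and with normexp 2 were higher and 0 lower (14.5%). With slide as a block only Mrps22 was called (1.11, limma adjusted p = 0.0443), and 11.6% of all genes were. The slide that holds AOM/DSS replicate 3 and the control arrays has 1 AOM/DSS array, so only sizes are given for it. There Mrpl14 differed by -0.82, Mrps12 by -0.95, Mrps6 by -0.92, Mrps24 by -0.61 and Mrps36 by -0.34. Mrpl22 differed by 1.29, Mrps18b by 1.14, Mrps22 by 1.11 and Mrps7 by 0.83. The count fell to 2 to 5 without AOM/DSS replicate 1 (2), replicate 2 (3) or replicate 3 (5) and without control replicate 1 (3) or 2 (4). Of all genes, 24.7%, 26.2%, 27.4%, 22.7% and 26.8% were called in these fits, against 34.7% in the main fit. With DSS replicate 1 and control replicate 3 left out, the pair with the highest pancreatic markers, 8 members were higher and 11 lower. In that fit 42.2% of all genes were called.

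AOM epithelium against control gave mostly rises among the members. Of 78, 17 rose and 1 fell (23.1%), against 32.4% of all genes (14.8% higher, 17.6% lower), and the median difference was 0.38, against -0.0082 over all genes. Among the 13513 tested genes with a symbol, as all members have, 17.97% were higher and 12.72% lower, with a median of 0.16. The members' median was also above 0 under median scaling (0.55) and quantile normalization (0.34). The median of tested genes with a symbol was 0.33 and 0.17 under these settings. The 3 AOM arrays lay above the 3 control arrays for 41 members (22.6% of all genes) and below them for 3 (26.7% of all genes). The rises included conserved core proteins (Mrpl2, Mrpl3, Mrpl4, Mrpl11, Mrpl22, Mrps2, Mrps5, Mrps7, Mrps11) and later additions to the mitochondrial ribosome (Mrpl37, Mrpl38, Mrps26, Mrps27, Mrps30).

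Mrps7 read 2.28, 2.39 and 2.24 on AOM arrays, against 1.03, 1.35 and 1.11 on control arrays, a difference of 1.14 (SE 0.22, limma adjusted p = 0.0083). The other of its 2 probes differed by 0.64. Mrps18b rose by 1.15 (SE 0.31, adjusted p = 0.0224). Mrps11, the counterpart of bacterial S11 in the platform of the small subunit, read 1.52, 1.54 and 1.08 on AOM and 0.01, 0.35 and 0.41 on control arrays, and rose by 1.12 (SE 0.39, adjusted p = 0.0479). In none of these did the AOM and control arrays overlap. Mrpl37 rose by 0.95 (SE 0.24, adjusted p = 0.0173) and its distant relative Mrps30, which sits in the large subunit despite its symbol, by 0.81 (SE 0.21, adjusted p = 0.0182). Mrpl38, a large-subunit protein of the central protuberance, rose by 0.94 (SE 0.26, adjusted p = 0.0223). The only fall was that of Mrpl47, the counterpart of bacterial L29 beside the tunnel exit. It read -0.28, -0.25 and 0.05 on AOM arrays, against 0.57, 0.87 and 1.07 on control arrays, with a difference of -0.99 (SE 0.26, adjusted p = 0.0207).

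No slide holds both AOM and control arrays. With slide as a block, which links them through other groups, 0 members were called, with a median difference of 0.64, and the named members kept their sign (Mrps7 1.23, Mrps18b 1.31, Mrps11 1.29, Mrpl37 1.04, Mrpl38 0.66, Mrpl47 -0.71; limma adjusted p = 0.277 to 0.481). In that fit 4 of 18953 genes were called. The count was 2 without AOM replicate 2 or control replicate 1, 8 without AOM replicate 3, 10 without control replicate 2 and 30 without DSS replicate 1. Of all genes, 10.4%, 12.2%, 18.8%, 14.5% and 38.5% were called in these fits, in that order. Cell cycle markers moved with the group, with 8 of 9 higher in AOM than in control and a mean log2 level of 1.17 to 1.63 in AOM against -0.94 to 0.19 in control, as did all 6 neutrophil markers tested (-0.75 to -0.15 in AOM, -4.49 to -3.47 in control). Of the other lists, 5 of 6 macrophage, 3 of 6 fibroblast, 2 of 6 endothelial, 1 of 5 T cell and 1 of 6 smooth muscle markers were higher in AOM. Lower in AOM were 3 of 7 absorptive colonocyte and 4 of 8 exocrine pancreas markers, the pancreatic list with a median difference of -6.80. No goblet cell, pan-epithelial or B and plasma cell marker was called. The part of these cell types in the members' rise was not tested.

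AOM/DSS neoplasms against AOM epithelium gave mostly falls: 20 members fell and 3 rose (29.5%), against 37.1% of all genes (19.5% higher, 17.7% lower), with a median of -0.38 against -0.04 over all genes. Among genes with a symbol 12.6% were higher and 20.9% lower, with a median of -0.21. Arrays did not overlap for 41 members on the lower side (30.3% of all genes) and for 6 on the higher side (29.3%). Mrps12 fell furthest, by 1.50 (SE 0.26, limma adjusted p = 0.0045), followed by Mrpl14 (-1.24, SE 0.27, adjusted p = 0.0092), Mrpl28 (-1.16, SE 0.28, adjusted p = 0.0125), Mrps11 (-1.15, SE 0.39, adjusted p = 0.0401) and Mrps24 (-1.10, SE 0.28, adjusted p = 0.0144). Mrpl28, the counterpart of bacterial L28, read 4.46, 4.56 and 4.83 on AOM/DSS arrays and 5.88, 5.74 and 5.72 on AOM arrays. The stalk proteins Mrpl12, which also binds the mitochondrial RNA polymerase, and Mrpl10 fell by 0.97 (SE 0.24, adjusted p = 0.0145) and 0.71 (SE 0.24, adjusted p = 0.0418). The tunnel proteins Mrpl23 and Mrpl4 fell by 1.00 and 0.72.

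The rises were Mrpl47, Mrpl50 and Mrpl1. Mrpl47 was 1.06 higher in AOM/DSS than in AOM (SE 0.26, limma adjusted p = 0.0142), Mrpl50, a protein without a bacterial counterpart, 0.98 higher (SE 0.29, adjusted p = 0.0271), and Mrpl1, which forms the L1 stalk beside the exit site for transfer RNA, 0.88 higher (SE 0.26, adjusted p = 0.0248). The other of the 2 probes of Mrpl50 was 0.31 higher. Mrpl1 read 0.94, 0.77 and 1.36 on AOM/DSS and 0.03, -0.08 and 0.48 on AOM arrays, without overlap.

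In this comparison 2 arrays of each group share a slide. Within the slide that holds replicates 1 and 2 of both groups, 11 members fell and 1 rose, with 20.8% of all genes called, and with slide as a block 6 fell and 0 rose, with 14.9% of all genes called; Mrps12 was then at -1.44, Mrpl14 at -1.38, Mrps24 at -1.32 and Mrpl28 at -1.30 (limma adjusted p = 0.0374, 0.0414, 0.0425 and 0.0490 with the block). Quantile normalization gave 8 higher and 7 lower, with a median of -0.10 and 34.3% of all genes called. Median scaling gave 1 higher and 28 lower (39.6% of all genes). With normexp background correction no member was called, against 6.59% of all genes. The count was 8 without AOM/DSS replicate 1, 14 without replicate 2, 9 without AOM replicate 1 and 11 without replicate 2. Of all genes, 17.8%, 22.6%, 23.4% and 23.6% were called in these fits, in that order.

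Markers of several cell types were lower in AOM/DSS than in AOM as well. All 7 goblet cell markers were lower, at a mean log2 level of 2.01 to 5.10 in AOM/DSS and 6.66 to 7.45 in AOM, and 5 of 7 absorptive colonocyte markers, at -0.56 to 1.14 in AOM/DSS and 3.59 to 4.36 in AOM. Of B and plasma cell markers 5 of 6 were lower, at -2.06 to -0.20 in AOM/DSS and 0.75 to 4.12 in AOM, and of smooth muscle markers 5 of 6, at 0.57 to 0.79 in AOM/DSS and 2.37 to 3.05 in AOM. In AOM/DSS against AOM, 3 of 6 pan-epithelial, 1 of 5 T cell and 1 of 8 exocrine pancreas markers were lower too. There 2 of 6 neutrophil and 2 of 9 cell cycle markers were higher, and no macrophage, fibroblast or endothelial marker was called. Against DSS, all 7 goblet cell, all 6 B and plasma cell, 5 of 7 absorptive colonocyte and 4 of 6 pan-epithelial markers were lower in AOM/DSS. So were 3 of 6 smooth muscle, 2 of 5 T cell and 2 of 8 exocrine pancreas markers, whereas 4 of 6 neutrophil and 5 of 9 cell cycle markers were higher. The part of these cells in the members' falls was not tested.

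Against DSS epithelium, 2 members rose in AOM/DSS neoplasms and 7 fell (11.5%), against 35.9% of all genes (17.6% higher, 18.3% lower); 8 lay entirely higher (23.2% of all genes) and 8 entirely lower (25.8%). The median was -0.08, against 0.04 over all genes, and was -0.31 under median scaling, 0.21 under quantile normalization and 0.28 with normexp. Mrpl14 fell by 1.17 (SE 0.27, limma adjusted p = 0.0094), Mrpl43 by 1.02 (SE 0.24, adjusted p = 0.0101), Mrps6 by 1.01 (SE 0.27, adjusted p = 0.0161), Mrps24 by 0.88 (SE 0.28, adjusted p = 0.0307) and Mrps12 by 0.81 (SE 0.26, adjusted p = 0.0353). Mrpl43, a large-subunit protein without a bacterial counterpart, read 4.28, 4.43 and 4.39 on AOM/DSS arrays and 4.91, 5.67 and 5.57 on DSS arrays. The other of its 2 probes differed by -0.71. The rises were Mrpl13, the counterpart of bacterial L13 (0.79, SE 0.23, adjusted p = 0.0231), at 3.58, 3.51 and 3.96 on AOM/DSS and 2.84, 3.02 and 2.83 on DSS arrays, and Mrps22 (0.74, SE 0.24, adjusted p = 0.0350). No slide holds both groups. With slide as a block 0 members and 2.31% of all genes were called, and the named differences kept their sign. Quantile normalization gave 10 higher and 3 lower, median scaling 0 higher and 8 lower, and normexp no call. Of all genes, 36.1%, 33.3% and 9.97% were called there. The count was 26 without DSS replicate 1, 2 without replicate 3, 4 without replicate 2, and 3 and 4 without AOM/DSS replicates 1 and 2. The shares of all genes in these fits were 46.8%, 17.5%, 24.9%, 20.5% and 23.2%.

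DSS epithelium against control gave 0 called members in limma, as against 0.327% of all genes, and 2 with an unadjusted p under 0.05 (Mrps7 at 0.52 and Mrpl47 at -0.64), against 21.1% of all genes. The median was 0.10, against -0.02 over all genes. The 3 DSS arrays lay above all control arrays for 0 members (8.88% of all genes) and below them for 1 (9.55%). Without DSS replicate 1, 8 members were higher and 1 lower, with 16.8% of all genes called. Without that array and control replicate 3 together, 5 were higher and 1 lower, with 22.6% of all genes called. DSS against AOM gave 0 called members as well (0.0106% of all genes were called), with 10 members at an unadjusted p under 0.05, all lower in DSS, against 14.8% of all genes. The median was -0.26, against 0.05 over all genes, and -0.09 without DSS replicate 1 and control replicate 3. DSS arrays lay entirely below AOM arrays for 17 members (10.7% of all genes) and above them for 0 (7.84%).

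By role, the named members of the large subunit moved as follows. At the stalk, Mrpl11 rose in AOM over control by 0.87 (SE 0.23, limma adjusted p = 0.0199), whereas Mrpl12 and Mrpl10 stood at 0.53 and 0.28 there and did not pass the test. Near the catalytic centre, Mrpl3 rose by 0.90 (SE 0.22, adjusted p = 0.0157). Mrpl58, a peptidyl-tRNA hydrolase built into the ribosome that releases stalled chains, rose by 0.67 in AOM over control (SE 0.23, adjusted p = 0.0492) and fell by 0.85 in AOM/DSS against AOM (SE 0.23, adjusted p = 0.0201). Mrpl45, which anchors the ribosome to the inner membrane, Mrpl44, which has a ribonuclease III-like fold, and Mrpl41 passed no test. Mrpl45 averaged 2.18 ± 0.15 in AOM/DSS, 2.52 ± 0.14 in AOM, 2.22 ± 0.22 in DSS and 2.13 ± 0.24 in control (SD, n = 3 each).

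The S18 paralogs and the named small-subunit members follow. Mrps18b rose in both AOM/DSS and AOM over control, as given above. Mrps18a, which occupies a place in the large subunit, fell by 0.64 in AOM/DSS against AOM (SE 0.22, limma adjusted p = 0.0413) and stood at 0.51 in AOM over control, short of the threshold (adjusted p = 0.0930). Mrps18c passed no test, at -0.11 in AOM/DSS and -0.23 in AOM relative to control. Whether the paralogs differ from each other was not tested. Mrps27, a pentatricopeptide repeat protein, rose by 0.90 in AOM over control (SE 0.26, adjusted p = 0.0248), and Mrps5, the counterpart of bacterial S5 at the messenger RNA entrance, by 0.76 (SE 0.27, adjusted p = 0.0487). The 3 probes of Mrps5 disagree in AOM/DSS over control, from -0.54 to 0.49. Mrps16 and Mrps34, whose mutations cause human mitochondrial disease, fell in AOM/DSS against AOM by 0.92 (SE 0.25, adjusted p = 0.0183) and 0.68 (SE 0.22, adjusted p = 0.0317). Mrps35 passed no test.

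Counts were also taken by subunit, and stand beside the shares of all genes. In AOM/DSS over control, where 17.2% of all genes were higher and 17.5% lower, 1 rose and 2 fell of 49 large-subunit genes (median -0.02), and 3 rose and 4 fell of 29 small-subunit genes (median 0.04). In AOM over control, where 14.8% of all genes were higher and 17.6% lower, 9 rose and 1 fell of the large subunit (median 0.32) and 8 rose and 0 fell of the small subunit (median 0.44). In AOM/DSS against AOM, where 19.5% were higher and 17.7% lower, 3 rose and 13 fell of the large subunit (median -0.38) and 0 rose and 7 fell of the small subunit (median -0.44). Counting Mrps18a and Mrps30 with the large subunit and leaving out Mrps36 gave 10 rises and 1 fall of 51, and 7 rises and 0 falls of 26, in AOM over control. The 46 members with a bacterial counterpart had a median of 0.35 and the 32 mitochondria-specific members one of 0.42 in that comparison, and -0.37 and -0.43 in AOM/DSS against AOM. Of the S18 paralogs only Mrps18c was counted as having a bacterial counterpart. Mrps18a, Mrps18b and Mrps36 were counted as mitochondria-specific. The difference between subunits or classes was not tested.

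The differences of AOM/DSS varied with the level of the gene. The 39 members whose mean level was above 2.57 had a median of -0.15 in AOM/DSS over control, with 0 higher and 5 lower, and all genes in the same range of levels had a median of -0.30, with 30.1% lower and 9.53% higher. The 39 dimmer members had a median of 0.18, with 4 higher and 1 lower, against -0.02 for all genes in their range, of which 16.7% were higher and 19.1% lower. In AOM/DSS against AOM the brighter members had a median of -0.45, with 0 higher and 16 lower, against -0.51 for all genes of that range, of which 4.59% were higher and 36.3% lower. The dimmer ones had -0.32, with 3 higher and 4 lower, against -0.15 for all genes of theirs, of which 14.02% were higher and 18.32% lower. In AOM over control the medians were 0.31 for brighter and 0.42 for dimmer members, against 0.12 and 0.05 for all genes in those ranges. All 4 members lower in every AOM/DSS comparison belonged to the brighter group. The part of the array brightness in these differences was not tested.

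**Figure D3:**
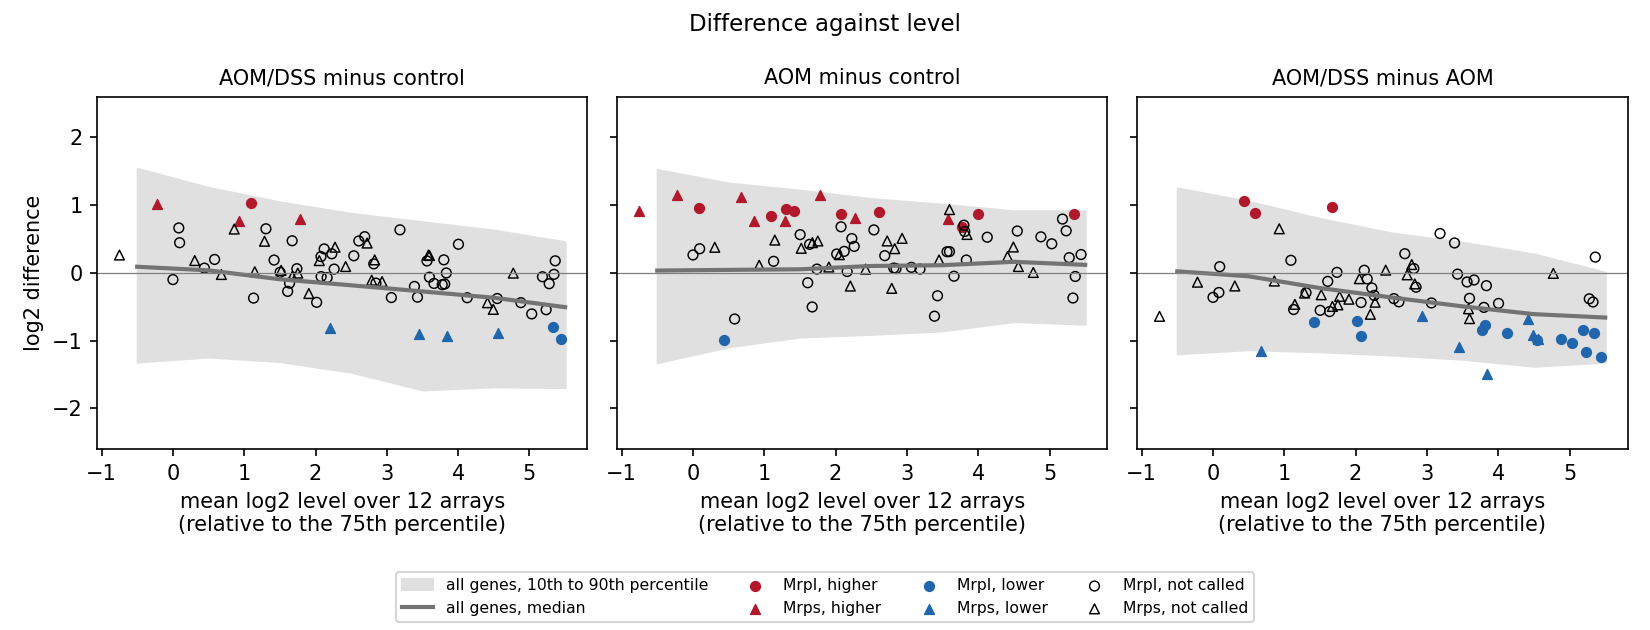
Log2 difference of each member (circles Mrpl, triangles Mrps, filled where called by limma) against its mean log2 level over 12 arrays, with the median (line) and 10th to 90th percentile (grey) of all tested genes by level. In the panels of AOM/DSS minus control and AOM/DSS minus AOM the line slopes down and called falls lie mostly to the right; in AOM minus control most members lie above the line.

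Other genes of mitochondrial translation gave mixed counts. Over all genes, 14.8% were higher and 17.6% lower in AOM over control, and 17.2% and 17.5% in AOM/DSS over control. With slide as a block, 4 of 18953 genes were called in AOM over control. Of 22 assembly and ribosomal RNA modification factors tested, 10 rose and 0 fell in AOM over control (median 0.57), among them Rcc1l (1.17, SE 0.30, limma adjusted p = 0.0180), the helicases Ddx28 (1.13, SE 0.20, adjusted p = 0.0068) and Dhx30 (0.98, SE 0.21, adjusted p = 0.0114), and the GTPase Noa1 (1.05, SE 0.29, adjusted p = 0.0238). In AOM/DSS over control 3 of the 22 rose and 0 fell (Noa1 1.09, Dhx30 0.79, Ddx28 0.65). Of 22 mitochondrial aminoacyl-tRNA synthetases, 2 rose and 2 fell in AOM/DSS over control, with Yars2 at 1.68 (SE 0.31, adjusted p = 0.0026) and Lars2 at -1.52 (SE 0.25, adjusted p = 0.0015). Of 14 translation factors, 1 rose and 1 fell: Gfm1, an elongation factor, at 0.78 and Mtif3, an initiation factor that dissociates the subunits, at -1.39 (SE 0.23, adjusted p = 0.0016). Mtif3 read 0.40, 0.40 and 0.30 on AOM/DSS arrays, against 1.96, 1.93 and 1.38 on control arrays, without overlap. Mtif2, the other initiation factor, fell by 1.35 in AOM against control (SE 0.31, adjusted p = 0.0134).

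Among 12 regulators of mitochondrial biogenesis, 2 rose and 4 fell in AOM/DSS over control, where 17.2% of all genes were higher and 17.5% lower. The coactivators Ppargc1b and Ppargc1a were lower by 2.52 (SE 0.32, limma adjusted p = 3.1e-04) and 1.55 (SE 0.35, adjusted p = 0.0070), their partner receptor Esrra by 1.36 (SE 0.22, adjusted p = 0.0014), and Myc was higher by 1.57 (SE 0.37, adjusted p = 0.0087). In AOM over control Ppargc1a fell by 2.52 (SE 0.35, adjusted p = 0.0038), Ppargc1b by 1.63 (SE 0.32, adjusted p = 0.0083) and Gabpa, the DNA-binding subunit of GABP, by 0.95 (SE 0.21, adjusted p = 0.0123), while Myc rose by 1.61 (SE 0.37, adjusted p = 0.0137). The remaining calls of AOM/DSS over control were Max at -1.82 and Pprc1 at 1.29. Nrf1 and Yy1 passed no test in these comparisons, at -0.29 and -0.40 in AOM/DSS and 0.16 and -0.16 in AOM relative to control.

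Nuclear-encoded respiratory chain genes, which join the products of the mitochondrial ribosome in the same complexes, mostly fell in AOM/DSS. Of 81 tested, 2 rose and 62 fell in AOM/DSS over control (median -0.93), 0 rose and 59 fell against AOM (median -0.89), and 2 rose and 8 fell in AOM over control (median -0.05). Cytosolic ribosomal proteins, 83 tested, had 1 rise and 16 falls in AOM/DSS over control (median -0.29), 0 rises and 50 falls against AOM (median -0.75), and 11 rises and 0 falls in AOM over control (median 0.31). Over all genes, 17.2% were higher and 17.5% lower in AOM/DSS over control, and 19.5% and 17.7% against AOM. In AOM over control the shares were 14.8% and 17.6%. Mean log2 levels were 4.46 to 5.71 for the respiratory chain list and 6.35 to 7.35 for the cytosolic list, against 2.32 to 2.96 for the members. All genes around a level of 5.5 had a median of -0.51 in AOM/DSS over control and -0.66 against AOM. That level lies within the range of the respiratory chain list and below that of the cytosolic list, for which no such median was taken. The part of level in these falls was not tested. Cell type markers moved in AOM/DSS over control as well. Of absorptive colonocyte markers 6 of 7 were lower, at a mean log2 level of -0.56 to 1.14 in AOM/DSS and 4.87 to 5.77 in control. All 7 goblet cell, 7 of 8 exocrine pancreas, 4 of 6 pan-epithelial and 3 of 6 B and plasma cell markers were lower. All 6 neutrophil, 7 of 9 cell cycle, 4 of 6 macrophage, 4 of 6 fibroblast and 1 of 6 endothelial markers were higher. No T cell or smooth muscle marker was called. The part of these cell types in any of these differences was not tested. The differences between the lists were not tested.

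**Figure D4:**
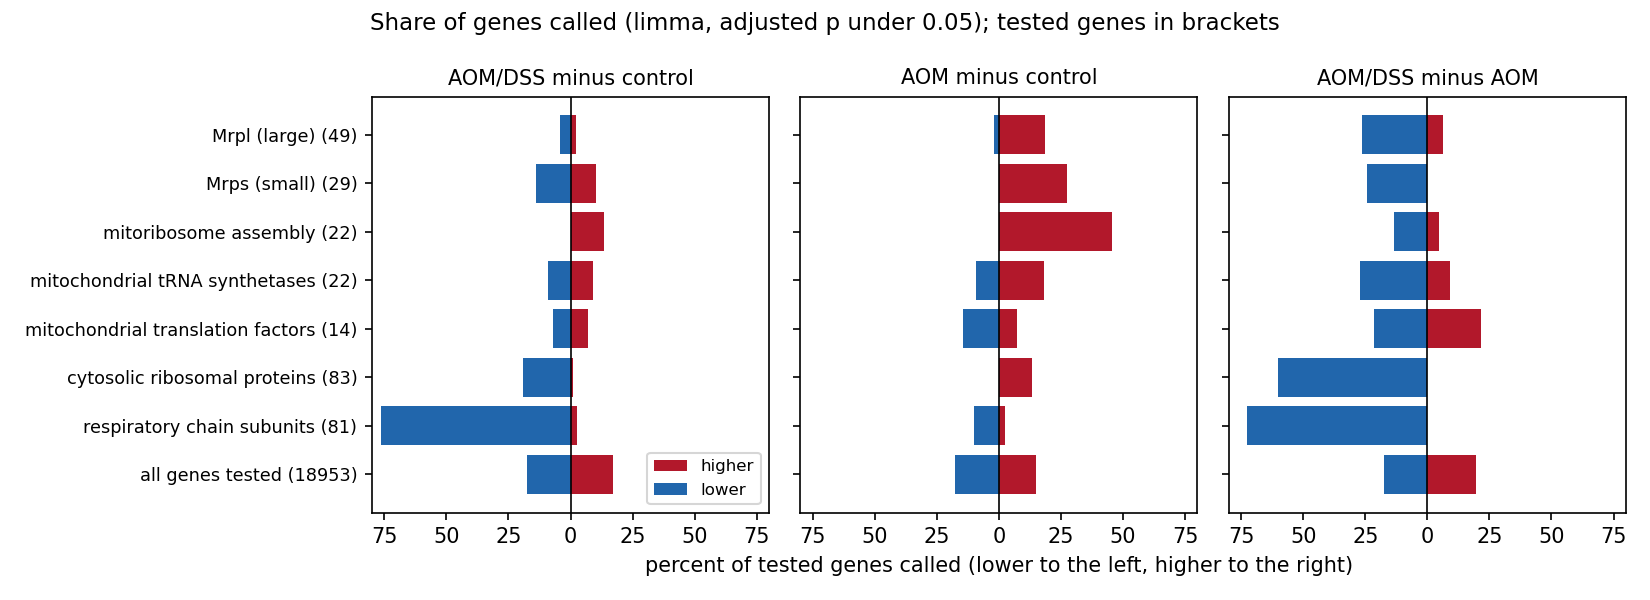
Percent of tested genes called higher (right) and lower (left) by limma in each list, for 3 comparisons, with the number tested in brackets. In AOM/DSS minus control 62 of 81 respiratory chain genes, 6 of 78 members and 17.5% of all genes tested are lower. The respiratory chain genes are brighter than the members. In AOM minus control the members' calls lie almost all on the higher side.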

How the data were processed

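RNA levels were read from 12 one-colour Agilent arrays, 3 for each of AOM/DSS, AOM, DSS and control. The deposited scanner files came out of Agilent Feature Extraction, as intensity values, with version 10.7.3.1 named per the file headers; the submitters' processing notes give 10.7. Their processed signal had local background removed and, per the file headers, no scaling across arrays. The deposited series matrix holds log2 values made by the authors; its sorted columns are equal within 0.000945, and the software behind it is not given in the labels or headers used here. It served as an alternative.

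Of 45018 spots per array, 41174 were non-control probes, and 27198 of them carried a symbol through the RefSeq accession of the probe. After log2, the 75th percentile of an array was subtracted from its values. A probe was kept if some group had it well above background in all its 3 arrays. The brightest kept probe stood for a gene, which left 18953 genes. The members had 116 probes, and 29 members had several; those with probes over 0.3 on opposite sides of 0 were Mrps5 in AOM/DSS minus control, Mrpl17, Mrpl41, Mrpl57 and Mrps25 in AOM minus control, Mrpl17 and Mrpl57 in AOM/DSS minus AOM, and Mrpl57 in AOM/DSS minus DSS. In the reference, 6 pseudogenes of members have no probe here. Cross-hybridization was not tested.

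Group means were fitted with limma 3.58.1 in R 4.3.3 over all 12 arrays (8 residual and 2.64 prior degrees of freedom), with Benjamini-Hochberg adjustment of p over the 18953 genes and a threshold of 0.05. Precision is limited by 3 arrays a group. The fit was tested on simulated data with known changes. Named members are the 5 largest called rises and falls of each comparison, a panel with known roles and those called in all 3 AOM/DSS comparisons; Mrpl51, Mrpl2, Mrpl4, Mrpl23, Mrps2, Mrps26, Esrra, Gabpa, Pprc1, Nrf1 and Yy1 were named after their values were seen. The members, lists, panel and classes were chosen with earlier results of these data known. Alternatives covered background correction (normexp, offset 50, on median spot and local background signals, since mean spot signal was not used here), scaling, filters, probe choice, slide, replicate number and left-out arrays. Promoters came from RefSeq (GRCm38.p6).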

Additional observations from a re-analysis of the deposited data

How the results depend on the processing

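Counts of called members, which were 10, 18, 0, 23, 9 and 0 in the order AOM/DSS minus control, AOM minus control, DSS minus control, AOM/DSS minus AOM, AOM/DSS minus DSS and DSS minus AOM, and 27 in the F test, moved by over 1.5 times as follows. With normexp background correction they were 2 (AOM/DSS minus control), 11 (AOM minus control), 0 (AOM/DSS minus AOM), 0 (AOM/DSS minus DSS) and 2 (F test). Of all genes, 14.5%, 9.82%, 6.59%, 9.97% and 12.9% were called there, against 34.7%, 32.4%, 37.1%, 35.9% and 52.6% in the main fit. Median scaling gave 5 in AOM/DSS minus control, with 30.6% of all genes called. Quantile normalization and the authors' series matrix values each gave 20 in AOM/DSS minus control and 15 in AOM/DSS minus AOM. The shares of all genes were 36.9% and 34.3% with quantile normalization, and 36.9% and 34.2% with the authors' values. The filter on all 12 arrays gave 14 in AOM/DSS minus DSS, with 39.5% of the 13718 genes then tested called. Slide as a block gave 1 in AOM/DSS minus control, 0 in AOM minus control, 6 in AOM/DSS minus AOM, 0 in AOM/DSS minus DSS and 1 in the F test. Of all genes, 11.6%, 0.0211%, 14.9%, 2.31% and 13.2% were called with the block. Within a slide, AOM/DSS minus AOM gave 12, with 20.8% of all genes called. Leaving out DSS replicate 1 and control replicate 3 together, an alternative chosen after seeing the data, gave 19 in AOM/DSS minus control, 6 in DSS minus control and 24 in AOM/DSS minus DSS. Of all genes, 42.2%, 22.6% and 49.6% were called in that fit. Leaving out each array in turn gave 2 to 14 in AOM/DSS minus control, 2 to 30 in AOM minus control, 0 to 9 in DSS minus control, 8 to 29 in AOM/DSS minus AOM, 2 to 26 in AOM/DSS minus DSS, 0 to 0 in DSS minus AOM and 3 (without AOM/DSS replicate 1) to 40 in the F test. Over these left-out fits the share of all genes called ran from 22.7% to 38.9% in AOM/DSS minus control and from 10.4% to 38.5% in AOM minus control. It ran from 0.00528% to 16.8% in DSS minus control and from 17.8% to 42.7% in AOM/DSS minus AOM. In AOM/DSS minus DSS it ran from 17.5% to 46.8%, in DSS minus AOM from 0% to 1.68% and in the F test from 31.3% to 61.3%. The left-out fits also hold fewer arrays. The cause of the moves was not tested.

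Median scaling moved the median difference of all genes to -0.12 in AOM/DSS minus control, 0.16 in AOM minus control, -0.36 in AOM/DSS minus AOM and -0.18 in AOM/DSS minus DSS. No named member that was called changed sign under any alternative run. Whether replicate numbers pair the arrays was not settled. Over 18 same-numbered pairs the correlation of deviations from group means ran from -0.27 to 0.24, with 8 over 0.1. Over differently numbered pairs of 2 groups it ran from -0.26 to 0.38. With replicate number as a block, the counts were 13, 17, 0, 21, 9 and 0, and 21 in the F test. The shares of all genes there were 32.6%, 31.7%, 0.211%, 35.7%, 34.4% and 0%, and 49.0% in the F test.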
